A study of Mus musculus with 4 samples.

Results

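The SoxB genes encode SRY-related transcription factors that bind DNA through a shared HMG box. The 4 described here are Sox1, Sox2, Sox3 and Sox21, taken by symbol from the 52636 gene identifiers of the count tables. They are 4 of the 20 mouse Sox genes in those tables, Sry included. RNA-seq was made from mouse cells that had been sorted by fluorescence from otocysts, the vesicles of ectoderm that form the inner ear. The series holds 2 Brg1cKO libraries, from a conditional knockout of Brg1, and 2 Control libraries. All are described as otic ectoderm, and each was made from 3000 cells. No source used here gives the Cre driver, the stage of the embryos or the number pooled. Nothing in the labels says that replicates came from separate litters or sorts, so each p-value is set by the spread among these 4 libraries, and that spread may be technical. The series title asks how Brg1, the ATPase of SWI/SNF chromatin remodelers encoded by Smarca4, acts on the activation of Sox2.

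Sox1, Sox2 and Sox3 form group B1. They act mainly as activators and keep neural progenitors undifferentiated. Sox21 belongs to group B2 with Sox14, and these act mainly as repressors that oppose B1 factors during neurogenesis. In the mouse inner ear Sox2 marks the region that gives rise to neurons and sensory patches, and the sensory organs do not form without it. Sox2 is also made in the neural tube, the foregut, the lens and olfactory placodes and the precursors of Schwann cells.

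Each of the 4 genes has a single exon in GENCODE M21, an annotation of the mm10 build. Sox2 (ENSMUSG00000074637) lies on chromosome 3 from 34650405 to 34652461 on the plus strand, and Sox1 (ENSMUSG00000096014) on chromosome 8 from 12395295 to 12400126 on the plus strand. Sox3 (ENSMUSG00000045179) lies on the X chromosome from 60891366 to 60893430 on the minus strand, and Sox21 (ENSMUSG00000061517) on chromosome 14 from 118233232 to 118237030 on the minus strand. Because the genes are alike in the part that encodes the HMG box, the coding sequences were compared over the 75 bases of a read, to show how far a read can tell the members apart. The 75 coding bases of Sox2 that came closest to all 3 others are given 5′ to 3′ with their nearest counterparts, from GENCODE M21 transcripts. Capitals mark the bases that differ from Sox2.
Sox2, chr3:34650572-34650646, plus strand: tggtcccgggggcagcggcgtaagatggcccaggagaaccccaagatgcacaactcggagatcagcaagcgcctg
Sox1, chr8:12396541-12396615, plus strand: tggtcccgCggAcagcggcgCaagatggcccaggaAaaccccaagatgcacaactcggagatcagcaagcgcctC
Sox3, chrX:60892897-60892971, minus strand: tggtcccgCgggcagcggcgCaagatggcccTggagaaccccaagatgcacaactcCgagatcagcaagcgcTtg
Sox21, chr14:118235510-118235584, minus strand: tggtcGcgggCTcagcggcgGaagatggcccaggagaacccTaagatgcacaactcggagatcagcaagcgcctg
Each of the 3 differed from Sox2 at 5 of these 75 bases. Over the whole coding sequences the longest identical run between any 2 members was 45 bases, between Sox1 and Sox3. No stretch of 75 bases was shared with fewer than 3 differences, which was the value for Sox1 against Sox3 and for Sox2 against Sox21. A read from any of these coding sequences therefore differed at 3 bases or more from the coding sequences of the other 3 genes.

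Other annotated genes overlap the members. Sox2 and Sox1 lie within the noncoding genes Sox2ot and Sox1ot on the same strand, with 0 shared exonic bases in each case. Sox1 also shares 86 exonic bases, 1.78% of its exon, with the miRNA gene Gm25239 on the same strand. Sox21 shares 713 exonic bases, 18.8% of its exon, with the noncoding gene Gm4675 on the opposite strand. Gm4675 and Sox1ot had 0 reads in every library. No source used here gives the strand setting of the counting, so reads from the shared part of Sox21 may have been counted as ambiguous and left out. Reads from the part of Sox1 shared with Gm25239 may also have been left out, under any strand setting.

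The libraries held 29361382 and 25875555 reads in genes for Brg1cKO, and 15357265 and 19132360 for Control. Levels are given in CPM after TMM scaling of the library totals, or per kilobase of exon as RPKM where genes are compared. Smarca4 stood at 891 and 848 CPM in Brg1cKO and at 816 and 815 CPM in Control, with a log2 fold change of 0.09 ± 0.0995 (SE; adjusted p = 0.817, edgeR quasi-likelihood test). The count covers the whole gene, deleted exons or not, so it checks the labels little, and every direction given here rests on the labels. Oc90, the otoconial matrix protein that defines otic vesicle epithelium, stood at 44.6 and 49.1 CPM in Brg1cKO and at 782 and 732 CPM in Control. Of 20 otic placode and vesicle genes tested, 0 passed higher and 2 lower, against 0.0121% and 0.0181% of all 16557 genes tested, and their summed level was 1180 to 1242 CPM in Brg1cKO and 3851 to 4014 CPM in Control. The 2 called lower were Oc90 and Col2a1, a collagen gene. Col2a1 made up the largest part of these sums, at 770 and 813 CPM in Brg1cKO and at 1724 and 1711 CPM in Control. Leaving out a library changed how many genes were called at all. Without Control replicate 1, edgeR called 8.82% of all genes higher and 8.82% lower, and without Control replicate 2 it called 8.46% higher and 8.39% lower. Without Brg1cKO replicate 1 it called 0.121% higher and 0.116% lower, and without Brg1cKO replicate 2 0.0996% higher and 0.0734% lower. Of the otic genes, 14 of 20 were called lower without each Control library in turn. The number was 6 of 20 when Brg1cKO replicate 1 was left out, and 4 of 19 when Brg1cKO replicate 2 was. A list of 15 white blood cell genes summed to 1850 to 1935 CPM in Brg1cKO and to 438 to 500.02 CPM in Control, with 1 of 15 called higher, against 0.0121% of all genes. That count was 14 without Control replicate 2 (8.46% of all genes), 12 without Control replicate 1 (8.82%), and 3 without each Brg1cKO library in turn (0.121% and 0.0996%). A list of 14 endothelial genes summed to 3434 to 3509 CPM in Brg1cKO and to 3117 to 3163 CPM in Control. A list of 14 head mesenchyme genes summed to 3321 to 3381 CPM in Brg1cKO and to 4001 to 4434 CPM in Control, above the otic list in each library. A list of 12 striated and cardiac muscle genes, 11 of them tested, summed to 897 to 904 CPM in Brg1cKO and to 146 to 194 CPM in Control, and 10 red blood cell genes to 212 to 229 CPM in Brg1cKO and to 635 to 662 CPM in Control. In bulk RNA, fewer cells of a type and less RNA per cell cannot be told apart, and the part that this makeup has in the SoxB levels was not tested.

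Sox2 was the most abundant SoxB gene in every library, and its level was higher in both Brg1cKO libraries than in both Control libraries. It had 880 and 872 reads in Brg1cKO and 187 and 314 reads in Control. That came to 30.1 and 33.6 CPM in Brg1cKO and to 12.1 and 16.7 CPM in Control, with means of 31.8 ± 2.53 CPM in Brg1cKO and 14.4 ± 3.19 CPM in Control (SD, n = 2 each). The groups did not overlap, as for 26.3% of the 16557 genes tested, which had both Brg1cKO libraries above both Control libraries. A log2 fold change of at least 1, as Sox2 had, was reached by 18% of them. The log2 fold change of Sox2 was 1.14 ± 0.577 (SE), with a 95% interval from -0.21 to 2.50. It did not pass (adjusted p = 0.511, edgeR quasi-likelihood test with Benjamini-Hochberg adjustment over all genes tested; unadjusted p = 0.0862). With 2 libraries in each group, an exact two-sided permutation test of a single value cannot go below p = 0.333.

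The difference of Sox2 between replicates was below the median for its level. On the log2(CPM + 0.5) scale its replicates differed by 0.16 in Brg1cKO and by 0.44 in Control. The median difference over genes within 0.5 of its mean level was 0.32 in Brg1cKO (2581 genes) and 1.07 in Control (1855 genes). A larger difference than that of Sox2 was found for 74.5% of these genes in Brg1cKO and 78.3% in Control. Ranked per kilobase among the tested genes, Sox2 was above 76.4% and 78.7% of them in Brg1cKO and above 53.9% and 60.7% in Control.

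The level of Sox1 separated the groups by presence of reads. Sox1 had 90 and 128 reads in Brg1cKO, or 3.07 and 4.94 CPM, and 0 reads in both Control libraries. A count of 0 allows up to 3 reads, which is 0.195 CPM in Control replicate 1 and 0.159 CPM in Control replicate 2, for counting error only. Against 3 reads over both Control libraries (0.0876 CPM), the mean of 4.01 ± 1.32 CPM in Brg1cKO (SD, n = 2) was at least 45.7-fold higher, for counting error only. That limit does not cover gaps between replicates. Of genes with 50 to 200 reads in Control replicate 1, 17.8% had 0 reads in Control replicate 2. From Control replicate 2 to Control replicate 1 the share was 21.2%. Scaled down to the 15357265 gene reads of the smallest library, the Sox1 counts in Brg1cKO would be 47 and 76 reads, more than the 3 reads that a count of 0 allows. Sox1 did not pass in the fit across all genes (adjusted p = 0.368, edgeR). Its fitted log2 fold change of 9.49 depends on the prior count of the fit and is no bound. DESeq2 did call it (adjusted p = 0.00124), as it called 14.6% of all genes tested (8.33% higher in Brg1cKO), and edgeR called it without Control replicate 1 (adjusted p = 0.0498), where it called 8.82% of all genes higher.

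Reads in Brg1cKO and none in Control were frequent at this count. Of 1396 genes with 50 to 200 reads in both Brg1cKO libraries, 124 (8.88%) had 0 reads in both Control libraries. Of 766 genes with 50 to 200 reads in both Control libraries, 6 (0.783%) had 0 reads in both Brg1cKO libraries. These limits are raw reads, and the Control libraries held fewer reads in genes, so a count of 0 was easier to reach in Control. The shares are therefore not like for like. Genes with at least 1 read numbered 20859 and 20902 in Brg1cKO and 17266 and 17086 in Control. Sox1 passed the filter on low counts through the Brg1cKO libraries alone, so a gene of this kind had to be higher in Brg1cKO once it was tested. For that reason no count of directions over the members is read as support.

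Sox3 levels overlapped between the groups. Sox3, the X-linked B1 gene, had 145 and 62 reads in Brg1cKO and 13 and 57 reads in Control, or 4.95 and 2.39 CPM in Brg1cKO and 0.845 and 3.02 CPM in Control. The higher Control library lay above the lower Brg1cKO library. Means were 3.67 ± 1.81 CPM in Brg1cKO and 1.93 ± 1.54 CPM in Control (SD, n = 2 each). The log2 fold change of 0.92 ± 1.84 (SE) had a 95% interval from -3.39 to 5.24 and did not pass (adjusted p = 0.922, edgeR). It ranged from 0.28 without Control replicate 1 to 2.09 without Control replicate 2. Of 5 sex-linked transcripts tested beside Sox3, 0 were called by edgeR. At an unadjusted p under 0.05, 1 was higher and 1 lower, against 7.66% and 4.8% of all genes tested. Xist, the RNA that coats the inactive X chromosome, stood at 412 and 432 CPM in Brg1cKO and at 260 and 281 CPM in Control. The Y-linked gene Kdm5d stood at 17.2 and 29.5 CPM in Brg1cKO and at 57.4 and 52.2 CPM in Control, and Uty, also Y-linked, at 10.997 and 20.5 CPM in Brg1cKO and at 89.9 and 16.8 CPM in Control. The groups overlapped for Uty. Both Brg1cKO libraries lay above both Control libraries for 1 of the 5, Xist, and below them for 3. Of all genes tested, 26.3% lay above and 17.8% below in this way. The part of these sex-linked levels in the level of Sox3 was not tested.

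Sox21, the B2 member, was found in 3 of the 4 libraries. It had 108 and 165 reads in Brg1cKO and 105 and 0 reads in Control. These came to 3.69 and 6.36 CPM in Brg1cKO and to 6.82 and 0 CPM in Control, so the highest and the lowest value both belonged to Control. The log2 fold change of 0.56 ± 2.30 (SE) had a 95% interval from -4.85 to 5.97 and did not pass (adjusted p = 0.966, edgeR). It was -0.46 without Control replicate 2 and 9.96 without Control replicate 1, where it passed (adjusted p = 0.0192, edgeR) against a lone Control library at 0, as 8.82% of all genes passed in the higher direction. A gap of this kind between replicates was common in Control. Of 2950 genes with 50 to 200 reads in Control replicate 1, 17.8% had 0 reads in Control replicate 2. In Brg1cKO the same share was 11.5% of 3264 genes, from replicate 1 to replicate 2.

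**Figure D1:**
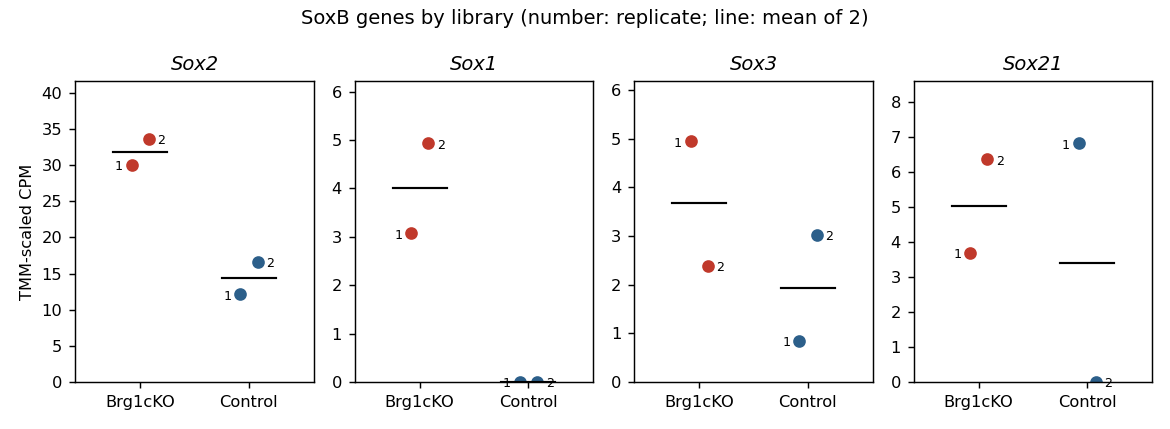
TMM-scaled CPM (vertical axes, each from 0) of Sox2, Sox1, Sox3 and Sox21 in the 2 Brg1cKO libraries (left in each panel, red) and the 2 Control libraries (right, blue). Small digits give the replicate and lines the mean of 2. The groups are apart for Sox2 and Sox1, where Control is at 0, and overlap for Sox3 and Sox21.

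Among the 4 SoxB genes, the numbers called by edgeR were 0 higher and 0 lower, against 0.0302% of all genes tested (5 of 16557; 0.0121% higher and 0.0181% lower). The fitted log2 fold changes were above 0 for each of the 4, as for 51.5% of all genes tested. Sox1 was the 1 member at an unadjusted p under 0.05, which 12.5% of all genes tested reached (7.66% in the higher direction and 4.8% in the lower). Without Control replicate 1 the number called was 2, Sox1 and Sox21, both higher, where 8.82% of all genes were called higher, and it was 0 without each of the other 3 libraries. Counted per kilobase, Sox2 made up 78.5% and 80.9% of summed SoxB RPKM in Brg1cKO and 72.8% and 84.7% in Control. The summed SoxB level was 18.6 and 20.2 RPKM in Brg1cKO and 8.11 and 9.56 RPKM in Control. In order of level per kilobase, Sox2 led with 14.6 and 16.3 RPKM in Brg1cKO and 5.91 and 8.10 RPKM in Control. The places below Sox2 were not set apart beyond the spread between libraries. Sox3 had 2.40 and 1.16 RPKM in Brg1cKO and 0.409 and 1.46 RPKM in Control. Sox21 had 0.971 and 1.68 RPKM in Brg1cKO and 1.80 and 0 RPKM in Control. Sox1 had 0.636 and 1.02 RPKM in Brg1cKO and 0 in both Control libraries.

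Sox14, the other B2 gene, had 0 and 3 reads in Brg1cKO and 32 and 0 reads in Control, and was not tested. Sox2ot, the noncoding RNA whose introns hold Sox2, stood at 0.478 and 3.74 CPM in Brg1cKO and at 1.49 and 10.5 CPM in Control. In each group its second replicate was the higher, and the groups overlapped (log2 fold change -1.50 ± 1.89 SE, adjusted p = 0.853, edgeR). Within 1 Mb of Sox2, 8 other genes were tested, Sox2ot among them. Their log2 fold changes ran from -1.50 to 1.12, and 0 passed by edgeR (lowest adjusted p = 0.365). The highest was that of Dnajc19, a mitochondrial import factor, with 13.0 and 30.6 CPM in Brg1cKO and 6.82 and 13.2 CPM in Control. Tested genes within 1 Mb of Sox1 numbered 23, of Sox3 6 and of Sox21 10, and 0 of them passed by edgeR.

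The promoter of Sox2 is shown because Sox2 is the member that the series title asks about. The 300 bases span the RefSeq start (GRCm38.p6, chr3:34649745-34650044, plus strand), upstream of the GENCODE gene start. Letters in capitals mark matches on either strand to 4 motifs. These were ATGCAAA, the core of the octamer bound by POU factors, ACAAAG and ACAATG, which HMG boxes of SOX factors bind, and CCAAT.
Sox2 promoter: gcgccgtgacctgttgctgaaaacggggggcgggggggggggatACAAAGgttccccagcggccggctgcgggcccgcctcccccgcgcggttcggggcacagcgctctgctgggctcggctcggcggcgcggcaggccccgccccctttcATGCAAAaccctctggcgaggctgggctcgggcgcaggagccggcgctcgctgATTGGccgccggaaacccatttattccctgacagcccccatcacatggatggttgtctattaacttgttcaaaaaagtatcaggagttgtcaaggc
It held 1 match to ATGCAAA, 1 to ACAAAG and 1 to CCAAT, and 0 to ACAATG. Of 32851 mouse promoters of the same length, 4.63% held ATGCAAA, 18.7% ACAAAG, 37.4% CCAAT and 12.6% ACAATG. The window of Sox1 held the full octamer ATGCAAAT, which takes in ATGCAAA and was found in 1.74% of promoters, and 1 CCAAT. The window of Sox21 held 0 matches to any of these motifs. Their GC contents were 66.3% for Sox2, 70.7% for Sox1 and 65.7% for Sox21, against a median of 52.7% over promoters. Entries for 3 of the 4 members were in the RefSeq table, the exception being Sox3. These matches describe the letters only.

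In the wider Sox family 17 of 20 genes were tested, and edgeR called 0 of them, against 0.0302% of all genes. The 3 group E genes, which act in neural crest, glia and otic epithelium, were lower in both Brg1cKO libraries than in both Control libraries. Sox9 stood at 119 and 93.8 CPM in Brg1cKO and at 213 and 218 CPM in Control (log2 fold change -1.02 ± 0.215 SE, adjusted p = 0.215, edgeR). Sox10 stood at 57.0 and 59.1 CPM in Brg1cKO and at 116 and 166 CPM in Control. The same order held for 17.8% of all genes tested. Per kilobase, the level of Sox2 was 50.8% and 72.1% of that of Sox9 in Brg1cKO and 11.5% and 15.4% in Control, a ratio chosen after its values were seen.

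Among group C genes of immature neurons, Sox11 stood at 424 and 439 CPM in Brg1cKO and at 552 and 644 CPM in Control. Within group D, whose members act in cartilage and glia, the directions differed. Sox5 stood at 14.9 and 14.0 CPM in Brg1cKO and at 79.4 and 47.3 CPM in Control, while Sox13 stood at 114 and 149 CPM in Brg1cKO and at 62.2 and 95.9 CPM in Control. Of the endothelial group F, Sox17 stood at 31.1 and 33.2 CPM in Brg1cKO and at 16.1 and 25.04 CPM in Control (log2 fold change 0.64 ± 0.539 SE, adjusted p = 0.754, edgeR). Sox18 had the same order, with 79.6 and 68.3 CPM in Brg1cKO and 41.1 and 65.0 CPM in Control. For Sox7 the groups overlapped, at 64.7 and 50.5 CPM in Brg1cKO and 64.0 and 62.3 CPM in Control. Like Sox1, Sox30 of group H had reads in Brg1cKO alone, 41 and 71 of them. Against 3 reads over both Control libraries it was at least 23.6-fold higher, for counting error only.

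**Figure D2:**
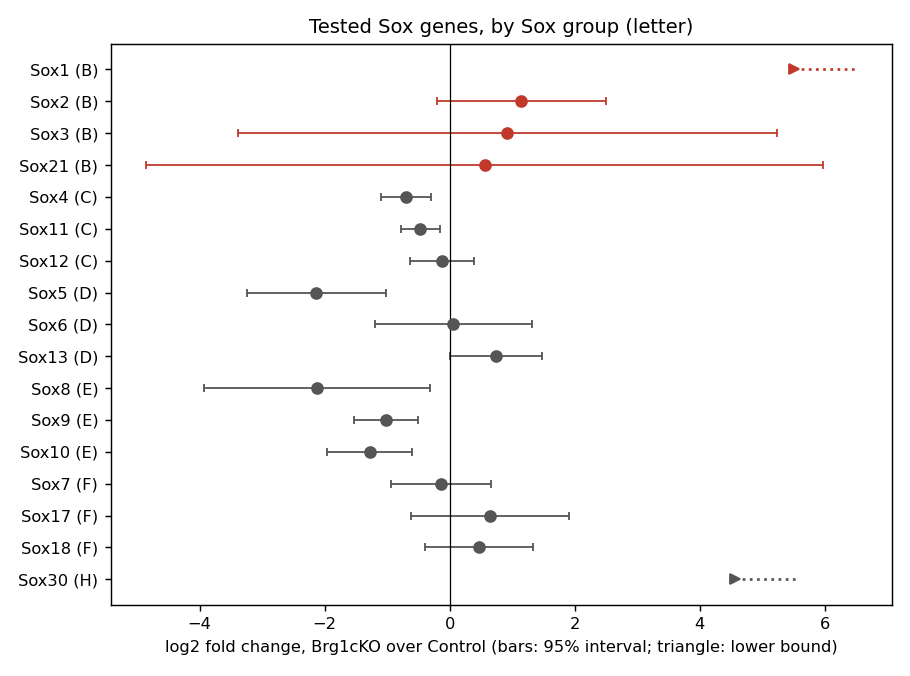
Log2 fold change of Brg1cKO over Control (horizontal axis) for the 17 tested Sox genes, with the Sox group as a letter, SoxB genes in red and 95% intervals as bars. Triangles with dotted lines mark lower bounds, for counting error only, of Sox1 (5.51) and Sox30 (4.56), which had 0 reads in Control. The interval of Sox2 takes in 0, and those of the 3 group E genes lie below it.

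Factors that act with Sox2 in the ear or in neural progenitors stood mostly lower in Brg1cKO. Of a list of 12 partners of SoxB proteins, 11 were tested, 8 with a negative and 3 with a positive log2 fold change, and a median of -0.55 against 0.03 over all genes tested. The count called by edgeR was 0 in each direction. At an unadjusted p under 0.05, 6 were lower and 0 higher, against 4.8% and 7.66% of all genes tested. Eya1, a transcriptional coactivator of otic neurogenic and sensory fate, stood at 35.4 and 46.7 CPM in Brg1cKO and at 116 and 210 CPM in Control (log2 fold change -1.99 ± 0.364 SE, adjusted p = 0.145, edgeR). Pax2, a paired box factor of the otic vesicle, stood at 20.4 and 6.94 CPM in Brg1cKO and at 81.0 and 120 CPM in Control. For both of these genes the Brg1cKO libraries lay below both Control libraries, opposite to the order of Sox2. Eya1 and Pax2 also stand in the list of otic genes. Pou5f1, the partner of Sox2 in pluripotent cells, had 0 reads in every library. Without Control replicate 1, edgeR called 2 of the list higher and 6 lower, without Control replicate 2 it called 6 lower, and without Brg1cKO replicate 1 it called 1 lower. The shares of all genes called lower in those fits were 8.82%, 8.39% and 0.116%, and 8.82% were called higher without Control replicate 1.

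For 16 prosensory genes and Notch partners of Sox2, 15 were tested, with 9 negative and 6 positive log2 fold changes. Their median was -0.55, and 0 were called by edgeR. At an unadjusted p under 0.05, 4 were lower and 0 higher, against 4.8% and 7.66% of all genes tested. Gata3, a zinc finger factor of the sensory region, stood at 23.7 and 27.7 CPM in Brg1cKO and at 85.1 and 57.7 CPM in Control. Isl1, a LIM homeobox factor of sensory and neural precursors, stood at 42.6 and 29.2 CPM in Brg1cKO and at 78.9 and 87.6 CPM in Control. Jag1, the Notch ligand that sustains Sox2 in sensory patches, had the order of Sox2, with 124 and 108 CPM in Brg1cKO and 92.9 and 66.5 CPM in Control (log2 fold change 0.54 ± 0.289 SE, adjusted p = 0.546, edgeR). Hes5, a Notch target, had 0 reads in every library. Without Control replicate 1, edgeR called 1 of the 15 higher and 5 lower (8.82% of all genes in each direction), and without Control replicate 2 it called 4 lower (8.39%).

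Of 12 genes listed as proneural and hair cell factors downstream of Sox2, 9 were tested. Whether Sox2 acts on each of them in these cells was not tested. All 9 had negative log2 fold changes and both Brg1cKO libraries below both Control libraries (17.8% of all genes tested did), with a median of -2.01 and 0 called by edgeR. At an unadjusted p under 0.05, 6 were lower and 0 higher, against 4.8% and 7.66% of all genes tested. Neurog1, the factor that starts otic neurogenesis, stood at 1.02 and 2.12 CPM in Brg1cKO and at 34.0 and 9.29 CPM in Control (log2 fold change -3.78 ± 1.15 SE, adjusted p = 0.365, edgeR). Pou4f1, a POU factor of sensory neurons, stood at 3.79 and 3.28 CPM in Brg1cKO and at 32.9 and 21.7 CPM in Control. Nhlh2, a helix-loop-helix factor of young neurons, stood at 12.5 and 14.6 CPM in Brg1cKO and at 69.0 and 46.0 CPM in Control. Of the list, edgeR called 5 of 11 lower without Control replicate 1 (8.82% of all genes), 7 of 10 without Control replicate 2 (8.39%) and 0 without each Brg1cKO library in turn. The other 3 of the list, the hair cell factors Atoh1, Pou4f3 and Gfi1, did not pass the filter on low counts. Atoh1 had 82 and 6 reads in Brg1cKO and 0 and 0 in Control. Pou4f3 had 0 and 0 reads in Brg1cKO and 0 and 172 in Control. Gfi1 had 0 and 5 reads in Brg1cKO and 0 and 0 in Control.

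**Figure D3:**
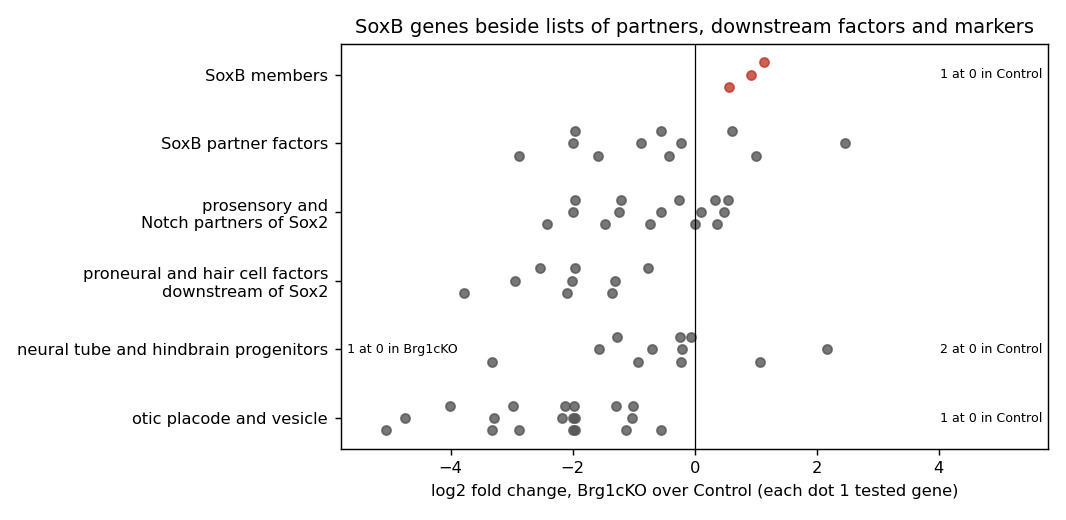
Log2 fold change of Brg1cKO over Control (horizontal axis) for each tested gene of 6 lists (rows), 1 dot a gene, with SoxB genes in red. Genes at 0 in a whole group, such as Sox1, are given as counts at the side. The 3 SoxB dots lie between 0.56 and 1.14. The 9 dots in the row of proneural and hair cell factors lie below 0, and Atoh1, Pou4f3 and Gfi1, which were not tested, are not among them.

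Other tissues that make SoxB proteins were read through their markers, and the part of each in the SoxB levels was not tested. Neural tube and hindbrain genes gave values in both directions. Of 20, 14 were tested, 4 positive and 10 negative, with 0 called by edgeR. At an unadjusted p under 0.05, 2 were higher and 4 lower, against 7.66% and 4.8% of all genes tested. Their summed levels were 342 to 350 CPM in Brg1cKO and 444 to 597 CPM in Control. Without Control replicate 1, edgeR called 2 of 17 higher and 5 lower (8.82% of all genes in each direction), and without Control replicate 2 it called 2 of 16 higher and 1 lower (8.46% and 8.39%). Within that list Pax3, a dorsal neural tube and neural crest factor, stood at 5.19 and 8.95 CPM in Brg1cKO and at 0 in both Control libraries. Nkx6-2, a ventral neural tube factor, stood at 4.06 and 15.1 CPM in Brg1cKO and at 0 in both Control libraries. En2, a midbrain and hindbrain factor, had 0 reads in Brg1cKO and stood at 0.52 and 17.8 CPM in Control. Hes5 and Fezf1 of this list had 0 reads in every library.

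Surface ectoderm genes summed to 103 to 123 CPM in Brg1cKO and to 35.8 to 55.7 CPM in Control, with 6 of 7 tested genes positive, 0 called by edgeR and 2 higher at an unadjusted p under 0.05, which 7.66% of all genes reached. With Control replicate 1 left out, 3 of 7 were called higher (8.82% of all genes), and without Control replicate 2, 3 of 8 (8.46%). Tfap2a, a surface ectoderm and neural crest factor, stood at 17.3 and 15.6 CPM in Brg1cKO and at 1.88 and 2.07 CPM in Control. Lens and olfactory placode genes summed to 245 to 255 CPM in Brg1cKO and to 119 to 142 CPM in Control, with 4 of 5 tested genes positive and 0 called by edgeR. Leaving out Control replicate 1, 3 of 6 were called higher (8.82% of all genes), and without Control replicate 2, 2 of 7 (8.46%). The lens and olfactory sums mostly give the level of 1 gene, Maf, which stood at 168 and 172 CPM in Brg1cKO and at 97.3 and 69.5 CPM in Control. The crystallins Cryaa and Crygc had 0 reads in every library. Neural crest and Schwann cell precursor genes summed to 548 to 584 CPM in Brg1cKO and to 587 to 656 CPM in Control, with 0 called by edgeR. In the fit without Control replicate 1, 3 of 10 were called higher and 2 lower (8.82% of all genes in each direction), and without Control replicate 2, 2 higher and 2 lower (8.46% and 8.39%). In that list Cdh19, a cadherin of Schwann cell precursors, stood at 3.96 and 3.74 CPM in Brg1cKO and at 0 in Control, whereas Erbb3 stood at 49.97 and 72.2 CPM in Brg1cKO and at 118 and 236 CPM in Control. Pharyngeal and foregut endoderm genes summed to 280 to 301 CPM in Brg1cKO and to 412 to 476 CPM in Control, with 3 of 11 tested genes positive, 8 negative and 0 called by edgeR. Without each Control library in turn, 1 of 11 was called higher and 2 lower, where 8.39% to 8.82% of all genes were called in each direction. Krt18, a keratin of simple epithelia, stood at 70.9 and 74.6 CPM in Brg1cKO and at 139 and 158 CPM in Control, and had the smallest p of the list (adjusted p = 0.264, edgeR). Cldn6, a tight junction protein, stood at 32.4 and 36.5 CPM in Brg1cKO and at 110 and 53.7 CPM in Control. Pax1, a factor of the pharyngeal pouches, stood at 6.28 and 7.48 CPM in Brg1cKO and at 17.3 and 27.4 CPM in Control. In the other direction, Nkx2-1, a foregut factor, stood at 3.38 and 1.74 CPM in Brg1cKO and at 0 in Control. Of 10 genes of pluripotent cells 4 were tested, 2 positive and 2 negative, with 0 called by edgeR. Klf4 stood at 56.5 and 86.4 CPM in Brg1cKO and at 114 and 114 CPM in Control. Lin28a went the other way, with 25.2 and 28.5 CPM in Brg1cKO and 18.6 and 3.66 CPM in Control. Pou5f1, Zfp42, Dppa3 and Tdgf1 had 0 reads in every library.

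Genes with the pattern most like that of each member were found by the Euclidean distance between centred log2(CPM + 0.5) values over the 4 libraries, among 10567 genes with a mean of at least 3 on that scale. For Sox2 the nearest included AI506816, at a distance of 0.0641, Glmp, Tysnd1 and Lyn, at 0.112. Lyn, a Src family kinase, stood at 71.1 and 79.4 CPM in Brg1cKO and at 31.7 and 42.6 CPM in Control. Genes within a distance of 1 of Sox2 numbered 2323, so its pattern was a common one. For Sox1 that number was 19, led by Cybb, an oxidase subunit of phagocytes, with 27.8 and 29.6 CPM in Brg1cKO and 2.66 and 2.23 CPM in Control. The Control values of Sox1 were 0, so its distances depend on the added 0.5. The lower limit of 3 on the mean also works against genes at 0 in both Control libraries. The number for Sox1 therefore does not show that its pattern was rare. For Sox3 the number within a distance of 1 was 1002, led by Snhg12 at a distance of 0.117. For Sox21 it was 46, led by Pfkfb2 at 0.454, with 16.1 and 17.8 CPM in Brg1cKO and 20.1 and 0.902 CPM in Control. Among the members themselves the nearest pair was Sox2 and Sox3, at a distance of 1.05, and the farthest was Sox3 and Sox21, at 3.94.

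The direction of Sox2 was the same under every setting tried. Its log2 fold change lay between 0.94, without Control replicate 1, and 1.37, without Control replicate 2. The adjusted p closest to the threshold was 0.0521 with DESeq2, and it was 0.0544 with edgeR without Control replicate 2.

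**Figure D4:**
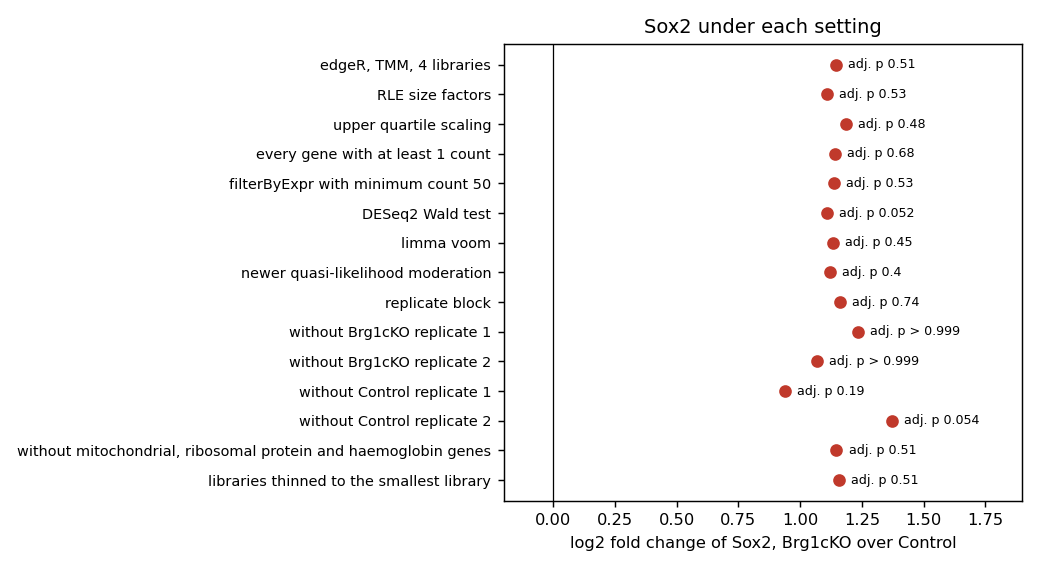
Log2 fold change of Sox2, Brg1cKO over Control (horizontal axis), under the test used throughout (top row) and 14 other settings, with the adjusted p beside each point. The points lie between 0.94 and 1.37, and no adjusted p is under 0.05.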

How the data were processed

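Per library, the authors deposited raw counts of reads per gene, in whole numbers, not normalized, keyed by Ensembl gene identifier. The submitters' processing notes name HISAT2, HTSeq, DESeq2 and mm10 without roles. The libraries were random-primed and strand-specific, read over 75 bp from a single end, per the labels' protocols. From every library, 5 lines for reads assigned to no gene were left out. They held 36.0% and 36.3% of records in Brg1cKO and 51.8% and 50.7% in Control. Symbols, positions and exon lengths came from GENCODE M21, which matched 52489 of 52636 identifiers.

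The test was edgeR 4.0.16 under R 4.3.3. Genes passing filterByExpr (minimum count 10) were scaled by TMM and fitted with a robust quasi-likelihood model in its installed default form with group as the term over the 4 libraries. Calls were made where the p adjusted by Benjamini-Hochberg over 16557 genes was under 0.05. Standard errors are the log2 fold change over the root of F. RPKM is scaled CPM per kilobase of merged exons. The fit was tested on simulated data. Alternatives included DESeq2 1.42.0 and voom in limma 3.58.1.

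The members and gene lists were chosen with earlier results of these data known. The genes named were the members, other Sox genes, up to 4 genes of each list with the smallest p, up to 3 of each cell type list with the highest CPM, and the 5 genes most like each member. Some genes that the rule names are not reported here. Atoh1, Pou4f3, Gfi1, Dnajc19 and list genes at 0 in every library fall outside that rule and were named after their values were seen. Limits from counts of 0 cover counting error only, because PCR copies cannot be told from molecules here.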

Additional observations from a re-analysis of the deposited data

How the results depend on the processing

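Sox2 and Sox3 kept a positive log2 fold change and an adjusted p above 0.05 in all 14 alternatives. Sox1 was positive in all 14. It was called by DESeq2 (log2 fold change 8.50) and without Control replicate 1, and its value ran from 9.03 to 9.64 with a library left out. Sox21 ran from -0.46 to 9.96 with a library left out, was 3.70 with voom and 3.28 with the replicate block, and was called without Control replicate 1 alone. Where a group is left with 1 library, that library is assumed to vary like the other group's. The count of called genes, 5 in the fit used throughout, was 417 with every gene of at least 1 count (164 higher, 253 lower), 10 with a minimum count of 50, 2422 with DESeq2, 54 with voom, 70 with the newer quasi-likelihood moderation and 140 with the replicate block, and 33 to 3519 with a library left out; the cause was not tested. It was 6 with RLE and 5 with upper quartile scaling. Same-numbered libraries did not deviate together (r = 0.00957 over 16557 genes). With 1 difference between replicates in each group, this value cannot exclude that the numbers pair them. Under the replicate block the log2 fold change was 1.16 for Sox2 (adjusted p = 0.736), 1.09 for Sox3 and 9.49 for Sox1 (edgeR), and 0 of the members were called. Leaving out each library for the gene lists was chosen after seeing the data. Members under about 10 CPM rest on 13 to 165 reads a library or on 0, which limits what can be said of Sox1, Sox3 and Sox21.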

Other observations

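Genes read in Brg1cKO at no less than the lower Sox1 count and at 0 in both Control libraries numbered 69, Sox1 among them, at 90 reads or more in each Brg1cKO library. The reverse pattern held for 8 genes, all of them pseudogenes, antisense or unclassified transcripts. The Brg1cKO libraries held more reads in genes than the Control libraries, and a smaller share of their records was not aligned. The numbers 69 and 8 are therefore not like for like. The 69 were picked by this pattern, so the values below are descriptions, and the names were chosen after they were seen. No gene group was counted or tested among them. Gata5, a zinc finger factor, had 877 and 459 reads in Brg1cKO. Ccl2, a chemokine, had 1125 and 562 reads in Brg1cKO. Myl3, a myosin light chain, had 744 and 555 reads in Brg1cKO. Csf2rb, a cytokine receptor subunit, had 869 and 748 reads in Brg1cKO. Wnt3a, a Wnt ligand, had 319 and 91 reads in Brg1cKO, and Otp, a homeobox factor, had 110 and 149.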
